A study of Nothobranchius furzeri with 20 samples.

Results

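In the livers of male turquoise killifish (Nothobranchius furzeri), 53 of 26739 gene identifiers had a median level at 5 weeks of age that was at least 1 log2 unit above the medians at 7, 10 and 14 weeks, while the 3 later medians lay close together. They were chosen from read counts divided by the library total and multiplied by 1000000 (CPM), as log2(CPM + 0.5). A gene needed an age median of at least 5 CPM, which 10384 identifiers had, and could not be among the 100 most abundant genes, which left 10284. The medians at 7, 10 and 14 weeks had to lie within less than 0.8 log2 units, which 6117 of these did. The score of a gene was its 5-week median minus the highest of the 3 later medians, and all 53 genes with a score of at least 1 were kept, since the limit of 150 genes was not reached. The levels that chose the genes are therefore given as a description, and no test of 5 weeks against later ages on them is independent.

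All 20 fish were males of GRZ, a short-lived laboratory strain, and 5 livers each were sequenced at 5, 7, 10 and 14 weeks. No treatment or mutation is named in the labels, and the series compares the age groups. Whether each library came from its own fish is taken from its separate label alone, so spreads and p-values refer to these samples.

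The turquoise killifish lives in seasonal pools and completes growth, sexual maturation and ageing within a single season, so that early weeks are a time of rapid body growth and maturation. The liver of fish, as of other vertebrates, makes most plasma proteins, stores fat and glycogen and handles bile acids and foreign compounds, and in many bony fish pancreatic tissue lies in or beside it. A bulk liver sample is therefore a mixture of hepatocytes with bile duct, vessel, blood and possibly pancreatic cells. In such samples fewer cells of a type and less RNA per cell cannot be told apart. The identifiers are not paired with gene names in the sources used here: 0 of the 26739 identifiers matched any of the 38438 genes of the RefSeq annotation of assembly NfurGRZ-RIMD1. Functions, positions and sequences are therefore not given, and the liver label could not be checked against marker genes.

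Total counts ran from 22529235 to 42886761 per library, and between 19032 and 20524 genes had at least 1 read. The 20 most abundant genes held 21.2% to 36.2% of the counts. A gene with no read in a library is bounded at 3 counts, which is 0.0700 to 0.133 CPM depending on the library and covers counting error only.

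The 53 genes were mostly of low level. On the scale of CPM + 0.5, their 5-week medians were about 2 to 10 times as high as the highest later median. Their 5-week median was 8.17 CPM for the middle gene, with a lowest of 5.15 CPM and a highest of 735 CPM. Later medians of the middle gene were lower and alike, with 2.24 CPM at 7 weeks, 2.32 at 10 and 2.71 at 14. The score had a median of 1.31 log2 units and ran from 1.02 to 3.36, which on the scale of CPM + 0.5 is a fold of 2.49 for the middle gene and 2.03 to 10.3 over all. It was under 1.5 in 34 genes and at least 2 in 11 genes. A 5-week median under 10 CPM was found in 33 genes and one of at least 50 CPM in 7 genes. Just inside the threshold stood genes with scores of 1.05 and 1.02, and just outside it genes with scores of 0.991 and 0.987. After 5 weeks the genes had no common order: the lowest median was that of 7 weeks in 20 genes, of 10 weeks in 15 genes and of 14 weeks in 18 genes, and the medians of 10 genes fell at every step.

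The name "high at 5 weeks" described the median of the fish and not each fish. A gene was called raised in a fish when it stood at least 1 log2 unit above its highest later median. Because the score uses the median of 5 fish, at least 3 raised 5-week fish are a consequence of the rule. None of the genes was raised in all 5 of the 5-week fish (0 of 53), and the same held for all genes that passed the level minimum (0% of 10284). Exactly 4 fish were raised in 18 genes, beside 0.224% of all genes with at least 4, and exactly 3 in 35 genes. The fish left out most often was 5-week fish 3, in which 9 of the 53 genes (17.0%) were raised. In 37 genes this fish was at or below the highest later median. All genes passing the level minimum had a median of -0.49 log2 units relative to their highest later median in this fish. Most of all genes were thus below it too. In 38 of the 53 genes 5-week fish 3 was the lowest of the 5-week fish, a count that was not made over all genes. By contrast 49 genes (92.5%) were raised in 5-week fish 4, 42 (79.2%) in fish 1, 40 (75.5%) in fish 2 and 37 (69.8%) in fish 5. Over all genes passing the level minimum, the share raised was 4.53% in 5-week fish 1, 2.97% in fish 2, 0.72% in fish 3, 1.39% in fish 4 and 1.22% in fish 5.

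**Figure D1:**
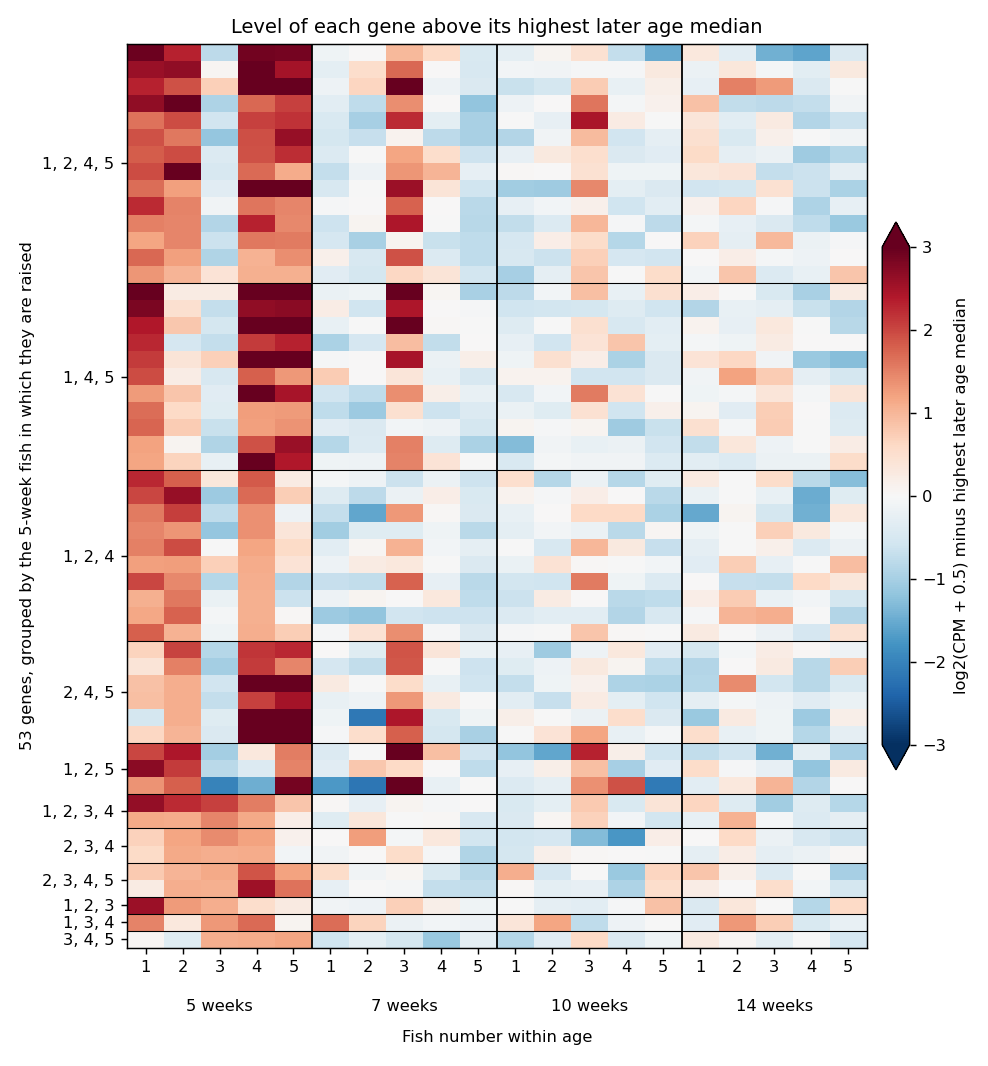
Each row is 1 of the 53 genes and each column 1 fish, with ages from left to right and fish numbered within an age. Colour gives log2(CPM + 0.5) minus the gene's highest later age median, cut at -3 and 3, and rows are grouped by the 5-week fish in which the gene is raised. The column of 5-week fish 3 is pale or blue in most rows, while that of 7-week fish 3 is red in many.

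Later fish were not uniformly low either, and 7-week fish 3 resembled the raised 5-week fish. In it 28 of the 53 genes (52.8%) were raised, against 2.11% of all genes passing the level minimum. In this fish 20 of the 53 genes exceeded their own 5-week median. Most of all genes passing the level minimum exceeded theirs in it. The 53 genes, chosen for a high 5-week median, thus did so less often, a direction that the choice favours. In 7-week fish 3 the median of the 53 genes was 1.19 log2 units above their highest later median, and 11 genes were at or under it. The median of all genes passing the level minimum was -0.145 log2 units there. The other 7-week fish had 0 or 1 raised gene each, beside 0.194%, 0.515%, 0.418% and 0.117% of all genes in fish 1, 2, 4 and 5. The level in 7-week fish 3 was 2.72 times the median of the other 7-week fish for the middle gene of the 53, and 1.02 times for the middle one of all genes. It was at least 2-fold higher in 34 of the 53 genes (64.2%), against 5.93% of all genes. The values of this fish entered the 7-week medians that the rule used, and a median of 5 is little moved by 1 high fish. The second later fish with raised genes was 10-week fish 3, with 9 genes (17.0%) against 1.63% of all genes, and all 9 of them were also raised in 7-week fish 3. The other 10-week fish had 0 or 1, beside 0.146%, 0.243%, 0.836% and 0.749% of all genes in fish 1, 2, 4 and 5. Of the 14-week fish, fish 2 had 6 raised genes (11.3%, against 0.71% of all genes), fish 3 had 3 (against 0.885%) and fish 1, 4 and 5 had 0. Among all genes 0.233%, 0.224% and 2.75% were raised in those last 3 fish. In 14-week fish 5 the highest share over all genes of any later fish thus went with 0 raised genes among the 53. The later fish with the next highest shares, 7-week fish 3 and 10-week fish 3, had the most raised genes among the 53.

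In all, 35 genes had at least 1 raised later fish and 18 had none. In 17 genes 7-week fish 3 was the only raised later fish. At least 1 later fish exceeded the 5-week median in 24 genes, a count that was not made over all genes. Single later fish did so in 0 to 20 of the 53 genes, with 20 in 7-week fish 3. Over all genes passing the level minimum, single later fish did so in 34.2% (10-week fish 2) to 65.6% (10-week fish 3). In single fish the 53 genes thus showed this less often, a direction that their choice for a high 5-week median favours. The highest of all 20 fish was a later one in 5 genes. Genes with any raised later fish, or with a later fish highest, were not counted over all genes. The 5-week and later fish overlapped in nearly every gene: all 5-week fish lay above all 15 later fish in 1 of the 53 genes (1.89%, against 0.0486% of all genes passing the level minimum). At least 4 of the 5-week fish lay above all later fish in 12 genes (22.6%, against 0.661%). At least 3 did so in 29 genes (54.7%, against 2.65%). Within single later ages, all 5-week fish lay above all 7-week fish in 6 genes (against 5.07% of all genes), above all 10-week fish in 2 (1.89%) and above all 14-week fish in 2 (1.19%). Without 5-week fish 3, the other 5-week fish lay above all later fish in 9 genes (17.0%, against 0.467%). Without 5-week fish 3 and 7-week fish 3, an alternative chosen after seeing the data, all 4 remaining 5-week fish lay above the 14 remaining later fish in 19 genes (35.8%, against 0.739%).

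**Figure D2:**
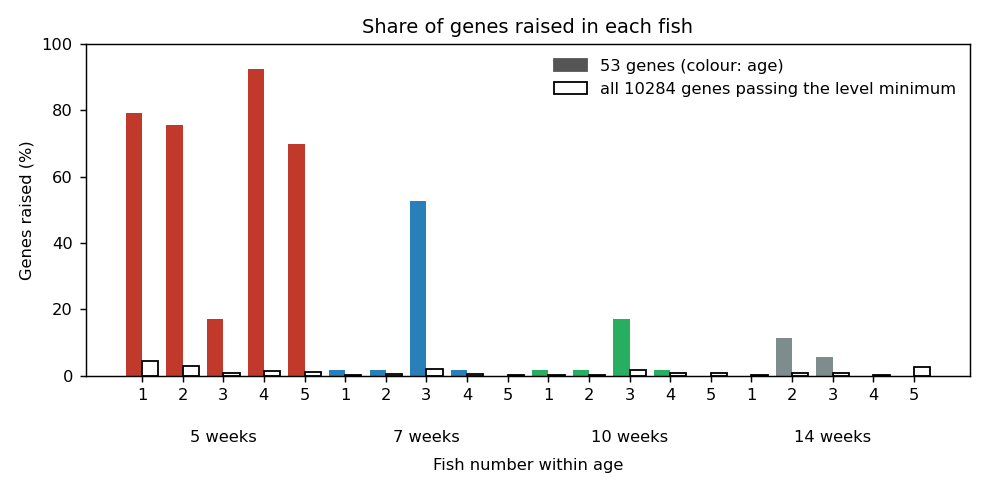
Filled bars give the percentage of the 53 genes raised in each fish, coloured by age, and open bars the same percentage over all 10284 genes passing the level minimum. The 5-week fish stand at 69.8% to 92.5% except fish 3 at 17.0%, and among later fish 7-week fish 3 stands at 52.8%.

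Some properties of whole libraries differed in the same fish. Genes with at least 1 read numbered 19156 in 5-week fish 3, against 19708 to 20524 in the other 5-week fish. They numbered 20059 in 7-week fish 3, against 19032 to 19788 in the other 7-week fish, and 20497 in 10-week fish 3, against 19257 to 19654 in the other 10-week fish. The 10-week fish 3 was also the deepest of all libraries, with 42886761 counts against 24330529 to 30312481 in the other 10-week fish. The 5-week fish 3 was the deepest of its age, with 32050062 counts, although it had the fewest genes with a read there. The TMM scaling factor, which corrects for library composition, was 0.848 in 5-week fish 3 and 1.23 in 5-week fish 1, the lowest and highest of all libraries. The part of these differences in the result was not tested. The median gene of all those passing the level minimum stood at -0.49 log2 units relative to its highest later median in 5-week fish 3, and at -0.57 units in 5-week fish 4, in which most of the 53 genes were raised. With TMM-scaled CPM, 5-week fish 1 had 34 and fish 2 had 29 raised genes, while fish 3, 4 and 5 kept counts of 9, 49 and 37, and 7-week fish 3 had 27.

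On CPM from library totals, the raised genes fell into sets by the 5-week fish that carried them. With TMM-scaled CPM, 5-week fish 1 and 2 had 34 and 29 raised genes in place of 42 and 40. The sets therefore depend on the scaling. The largest set, of 14 genes, was raised in fish 1, 2, 4 and 5. A set of 11 genes was raised in fish 1, 4 and 5, one of 10 genes in fish 1, 2 and 4, and one of 6 genes in fish 2, 4 and 5. The remaining 12 genes were spread over 7 other combinations, which include all 9 genes raised in 5-week fish 3. None of these 9 genes was raised in 7-week fish 3 (0 of 9). The sets differ by construction in fish 2 and fish 5. The median of the set raised in fish 1, 4 and 5 was 2.48 log2 units above the highest later median in fish 5 and 0.486 units above it in fish 2. For the set raised in fish 1, 2 and 4 it was 0.308 units in fish 5 and 1.67 units in fish 2.

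The sets were made from the 5-week fish, each against the highest later median, and 7-week fish 3 was raised in different shares of them. It was raised in 10 of the 14 genes of the first set, 7 of the 11 raised in fish 1, 4 and 5, and 5 of the 6 raised in fish 2, 4 and 5, but in 4 of the 10 raised in fish 1, 2 and 4. The median of these sets in 7-week fish 3 was 1.55, 1.5, 1.82 and 0.155 log2 units above the highest later median, in the same order. Over all 53 genes, 24 of the 37 raised in 5-week fish 5 were raised in 7-week fish 3, and 4 of the 16 that were not. The sets were formed after their values were known, so these counts carry no test.

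**Figure D3:**
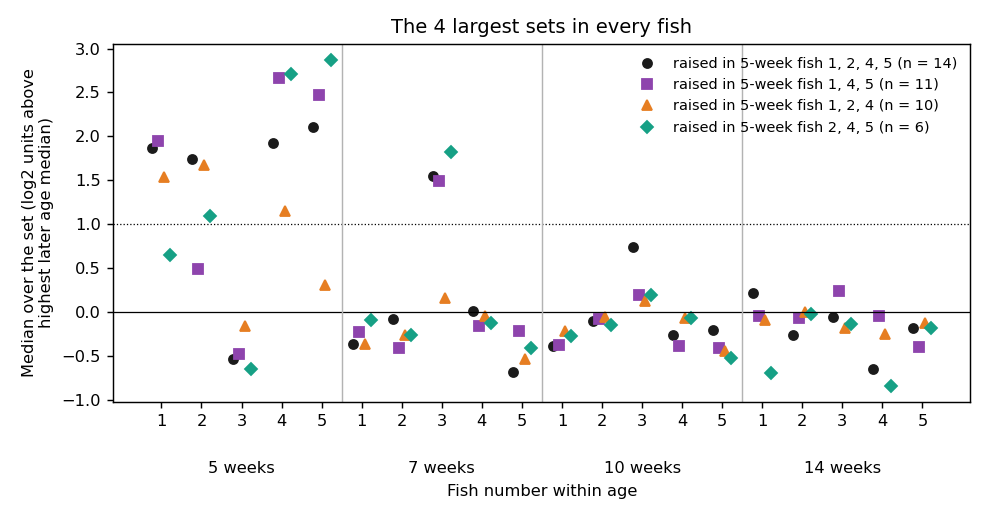
Points give the median over each of the 4 largest sets, in log2 units above the highest later median, for every fish, and the dotted line marks the threshold of 1 unit. In 7-week fish 3 the sets of 14, 11 and 6 genes stand at 1.55, 1.5 and 1.82 units, and the set raised in 5-week fish 1, 2 and 4 stands at 0.155 units.

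A few identifiers show the range of these patterns. Nfu_g_1_011463 came closest to a gene high in every 5-week fish. Its levels at 5 weeks were 7.95, 5.93, 5.15, 3.45 and 1.91 CPM in fish 1 to 5. At 7 weeks its levels were 0.896, 0.647, 0.948, 0.831 and 0.864 CPM. At 10 weeks its levels were 0.499, 0.617, 1.87, 0.495 and 1.28 CPM, and at 14 weeks 1.65, 0.542, 0.162, 0.549 and 0.259 CPM. This was the single gene of the 53 in which the 5-week fish did not overlap any later fish, and the gap between 5-week fish 5 and 10-week fish 3 was small. The fitted change was -2.50 log2 units at 7 weeks (SE 0.505), -2.33 at 10 weeks (SE 0.50) and -2.88 at 14 weeks (SE 0.517), each against 5 weeks.

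Nfu_g_1_015816 and Nfu_g_1_006537 were separated from some later ages and overlapped others. Nfu_g_1_015816 had 10.9, 7.69, 2.50, 8.03 and 2.32 CPM at 5 weeks and 1.01 to 1.79 CPM at 7 weeks (median 1.59 CPM), with 0.822 to 2.89 CPM at 10 weeks and 0.490 to 2.98 CPM at 14 weeks. Its 5-week fish did not overlap the 7-week fish but overlapped those of 10 and 14 weeks, and the fitted change at 7 against 5 weeks was -2.07 log2 units (SE 0.479). Nfu_g_1_006537 had 7.24, 11.3, 2.84, 6.77 and 3.07 CPM at 5 weeks, 1.02 to 1.83 CPM at 7 weeks and 1.39 to 2.30 CPM at 10 weeks. At 14 weeks it had 2.89, 6.51, 6.92, 2.98 and 1.38 CPM, so that its 5-week fish overlapped those of 14 weeks but not those of 7 or 10 weeks. Its fitted change was -1.54 log2 units at 10 against 5 weeks (SE 0.383) and 1.47 at 14 against 7 weeks (SE 0.386).

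Nfu_g_1_015861 had the highest score, and its 5-week level was divided between fish. It had 18.4 CPM in 5-week fish 1, 1.70 in fish 2, 1.68 in fish 3, 185 in fish 4 and 149 in fish 5. At 7 weeks fish 3 had 47.0 CPM and the other fish 0.432 to 1.42 CPM, and levels were 0.571 to 2.94 CPM at 10 weeks and 0.431 to 1.67 CPM at 14 weeks. The 5-week median was thus the level of fish 1, and 5-week fish 2 and 3 stood within the later range, just above the highest 14-week fish. The fitted change at 14 against 5 weeks was -5.98 log2 units (SE 1.44). Nfu_g_1_006927 was divided in the same fish, with 5.86, 1.63, 0.343, 338 and 360 CPM in 5-week fish 1 to 5. At 7 weeks it had 68.8 CPM in fish 3 and 0.529 to 0.728 CPM in the others, and later fish had 0.173 to 1.19 CPM. Nfu_g_1_009387 had 5.99, 0.782, 0.0624, 5.30 and 5.51 CPM at 5 weeks and 4.41 CPM in 7-week fish 3, against 0.108 to 0.570 CPM in the other 7-week fish. It had 0.101 to 0.198 CPM at 10 weeks and no more than 0.287 CPM at 14 weeks, when it was at 0 in fish 1 and 5, so its later levels lie near the bound for a gene without reads. In all 3 of these genes 5-week fish 3 was among the low fish and 7-week fish 3 among the high ones.

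The other patterns were less divided. Nfu_g_1_008321 had 6.08, 7.56, 1.37, 8.25 and 8.17 CPM at 5 weeks, 0.997 to 2.62 CPM at 7 weeks, 1.12 to 3.78 CPM at 10 weeks and 1.91 to 5.27 CPM at 14 weeks. Only 5-week fish 3 stood among the later fish. Nfu_g_1_008256 had 83.9, 53.7, 5.83, 81.6 and 79.3 CPM at 5 weeks, with 7.50 to 21.2 CPM at 7 weeks, 3.33 to 14.6 CPM at 10 weeks and 3.18 to 13.1 CPM at 14 weeks. It was chosen after its values were seen, as the gene of highest score raised in 4 of the 5-week fish, and without 5-week fish 3 its 5-week levels would not overlap the later ones.

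Nfu_g_1_006434, also chosen after its values were seen, was the most abundant of the 53 genes, with a rebuilt 5-week median of 676 reads per kilobase and per 1000000 reads (RPKM). It had 735, 996, 71.2, 104 and 2116 CPM in 5-week fish 1 to 5 and 86.9, 63.9, 3116, 246 and 286 CPM at 7 weeks. It had 66.1 to 1087 CPM at 10 weeks and 156 to 589 CPM at 14 weeks. The highest value of all belonged to 7-week fish 3, and its mean was 760 ± 1321 CPM at 7 weeks, against 804 ± 835 CPM at 5 weeks (SD, n = 5 each). The fitted change at 7 against 5 weeks was -0.09 log2 units (SE 0.951), although the 5-week median passed the rule. This gene made up 76.0% of the summed CPM of the 53 genes in 7-week fish 3 and 51.4% in 5-week fish 5.

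**Figure D4:**
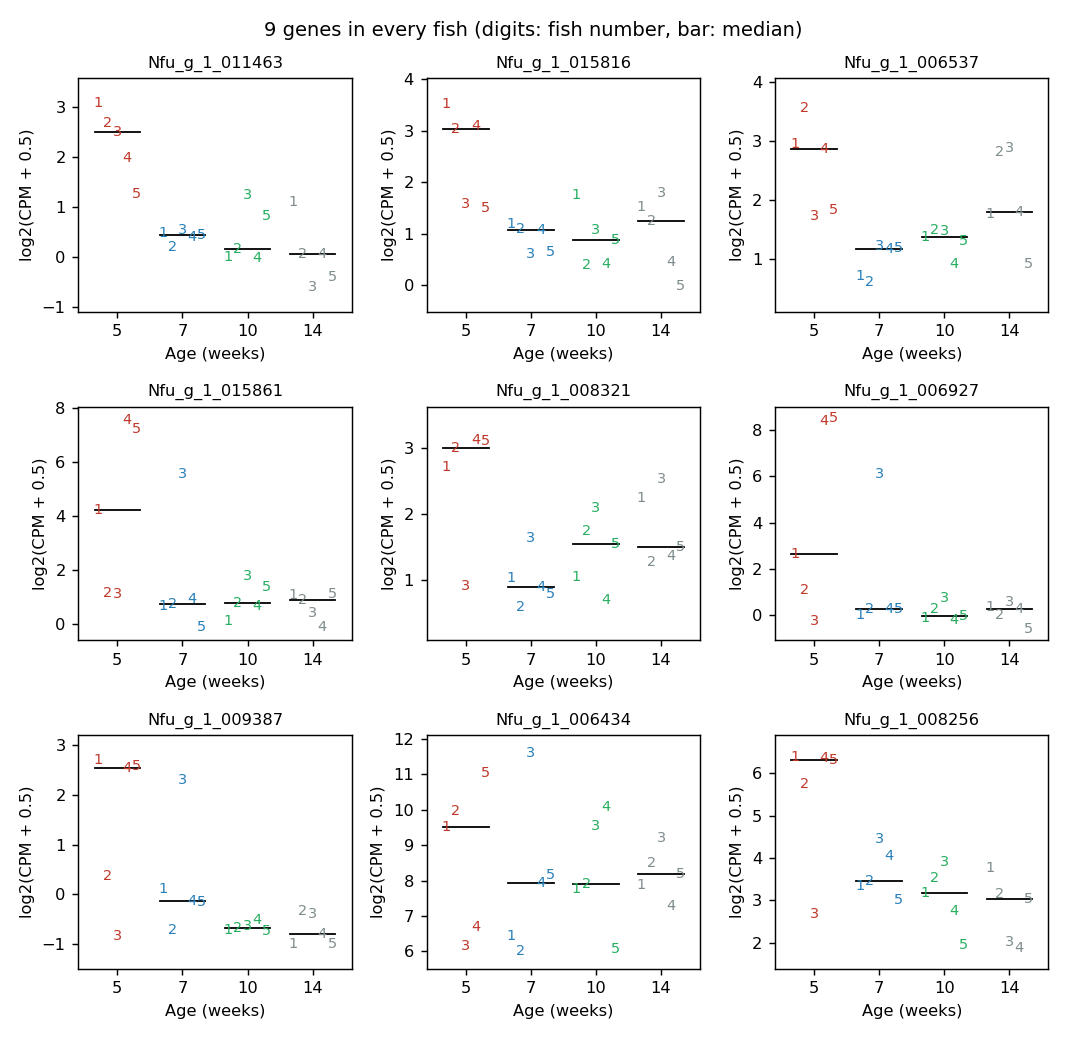
Each panel shows 1 gene as log2(CPM + 0.5) by age, digits mark the fish and bars the median of 5 fish. The digit 3 is the lowest or next to lowest at 5 weeks in every panel except that of Nfu_g_1_011463, and it lies far above the other 7-week fish in Nfu_g_1_015861, Nfu_g_1_006927, Nfu_g_1_009387 and Nfu_g_1_006434.

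The spread between fish of the same age was wide in these genes at 5 weeks. The middle gene of the 53 had an SD of 1.21 log2 units among 5-week fish, 0.70 among 7-week fish, 0.532 among 10-week fish and 0.534 among 14-week fish. Over all genes passing the level minimum the median SD at these ages was 0.457, 0.269, 0.346 and 0.372, in the same order. The 5-week values that give this spread also chose the genes, so the contrast with all genes is a description. How far the choice widened the spread was not tested. At 5 weeks the highest fish had 9.42 times the CPM of the lowest for the middle gene, and at least 10 times in 24 genes. The smallest such ratio among the 53 genes was 1.8.

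Differences between ages were also fitted for all genes with edgeR's quasi-likelihood test, with Benjamini-Hochberg adjustment over the 16475 genes tested and a call at an adjusted p under 0.05. All 53 genes were tested. Since the rule used the same contrasts, the calls are counts that describe the genes and support nothing. At 7 against 5 weeks 31 of the 53 genes were called lower, beside 11.5% of all tested genes. At 10 against 5 weeks 32 were called lower, beside 5.41%, and at 14 against 5 weeks 22 were called lower, beside 2.65%. None of the 53 was called higher in any of these (0 each), beside 9.66%, 2.56% and 1.31% of all tested genes called higher at 7, 10 and 14 weeks, and the comparisons share the 5-week libraries. The median fitted change over the 53 genes was -1.53 log2 units at 7 weeks, -1.61 at 10 weeks and -1.71 at 14 weeks, beside -0.09, -0.07 and -0.08 over all tested genes. The counts were higher without 5-week fish 3 or 7-week fish 3. Without 5-week fish 3 the count at 14 against 5 weeks was 37, beside 5.77% of all tested genes, so that calls over all genes were more frequent too. Without 7-week fish 3 the count at 7 against 5 weeks was 45, beside 11.5% of all tested genes, the same share as with all fish. Leaving out both was an alternative chosen after seeing the data. Of the 53 genes, 48 were then called lower at 7 weeks, 42 at 10 and 39 at 14. The shares of all tested genes called lower were 13.9%, 9.74% and 5.88%. With the libraries of the compared ages alone the counts were 18, 5 and 0, beside 5.83%, 0.576% and 0.0127% of all tested genes, and in the last of these 42 of the 52 genes tested were lower at an unadjusted p under 0.05 in edgeR.

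Single libraries moved these counts in the other direction too, in most cases together with the share called lower over all tested genes, which is given beside each count. At 7 against 5 weeks 17 genes were called lower when 5-week fish 4 was left out (7.25% of all genes), and leaving out 7-week fish 1, 2 or 5 gave 20, 18 or 19 (6.86%, 6.55% or 9.28%). At 10 against 5 weeks leaving out 5-week fish 4 gave 21 (4.99%), and leaving out 10-week fish 1, 3, 4 or 5 gave 16, 17, 5 or 14 (2.52%, 2.21%, 0.866% or 2.37%). At 14 against 5 weeks leaving out 5-week fish 2 or 4 gave 14 or 12 (1.37% or 2.73%), and leaving out 14-week fish 1, 3 or 4 gave 9, 3 or 3 (1.2%, 0.628% or 0.477%). Without 5-week fish 4 the shares over all genes at 10 and 14 weeks were near those with all fish, while fewer of the 53 genes were called.

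Between later ages few of the 53 genes were called, in contrasts whose medians the rule had kept close, so that these counts are a description too. At 10 against 7 weeks 1 gene was called, Nfu_g_1_009387, which was lower, beside 15.7% of all tested genes called lower and 11.9% called higher. That call was lost without 7-week fish 3, where 0 of the 53 genes were called lower and 1 was called higher. The gene called higher was Nfu_g_1_018453, named because it was called. Of all tested genes 15.4% were called lower and 13% higher without that fish. The call was also lost when 10-week fish 1, 2 or 4 was left out (0 of the 53 called each in edgeR, with 3 each lower at an unadjusted p under 0.05). Of all tested genes 14.3%, 13.4% and 14.1% were then called lower, and 11%, 9.89% and 10.1% higher. Between 14 and 10 weeks none was called by edgeR or DESeq2 (0 each), with 1 gene higher at an unadjusted p under 0.05 in edgeR. Of all tested genes, edgeR called 0.0121% higher and 0% lower, and DESeq2 called 0.206% higher and 0.0668% lower. At 14 against 7 weeks 4 genes were called, beside 16.7% of all tested genes called lower and 14.2% called higher. Nfu_g_1_006537 was higher at 14 weeks. Nfu_g_1_006927, Nfu_g_1_009387 and Nfu_g_1_017544, the last named because it was called, were lower. Without 7-week fish 3 none of the 53 genes was called lower (0, also at an unadjusted p under 0.05 in edgeR). The 2 called higher were Nfu_g_1_006537 and Nfu_g_1_008321. Of all tested genes 15.2% were called lower and 13.8% higher without that fish. The median fitted change over the 53 genes turned with that fish: it was -0.34 log2 units at 14 against 7 weeks with all fish and 0.19 without it, and -0.20 and 0.18 at 10 against 7 weeks. Nfu_g_1_017544 had 60.4 CPM in that fish and 2.20 to 6.93 CPM in the other 7-week fish. The fitted change of Nfu_g_1_006927 was -4.40 log2 units with all fish (SE 1.65) and -0.06 without 7-week fish 3, and that of Nfu_g_1_009387 was -3.13 (SE 1.07) and -1.5. The fitted change of Nfu_g_1_008321, 1.05 log2 units at 14 against 7 weeks (SE 0.418), was not called with all fish.

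Among the 15 later fish the genes varied together. After removing each age's mean, the Pearson correlation of log2(CPM + 0.5) between pairs of the 53 genes had a median of 0.396, against 0.0865 for pairs of all 10284 genes passing the level minimum. The points are the same 15 libraries for every pair, so this is a description. It rested largely on the 2 fish named above: leaving out 7-week fish 3 gave a median of 0.229, leaving out 10-week fish 3 gave 0.366 and leaving out both gave 0.116, against 0.0939, 0.0578 and 0.0613 for all genes. By set it was 0.640 for the genes raised in 5-week fish 1, 2, 4 and 5, 0.602 for those raised in fish 1, 4 and 5, 0.566 for those raised in fish 2, 4 and 5 and 0.217 for those raised in fish 1, 2 and 4. Without both fish these medians were 0.260, 0.0561, 0.254 and 0.0453.

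**Figure D5:**
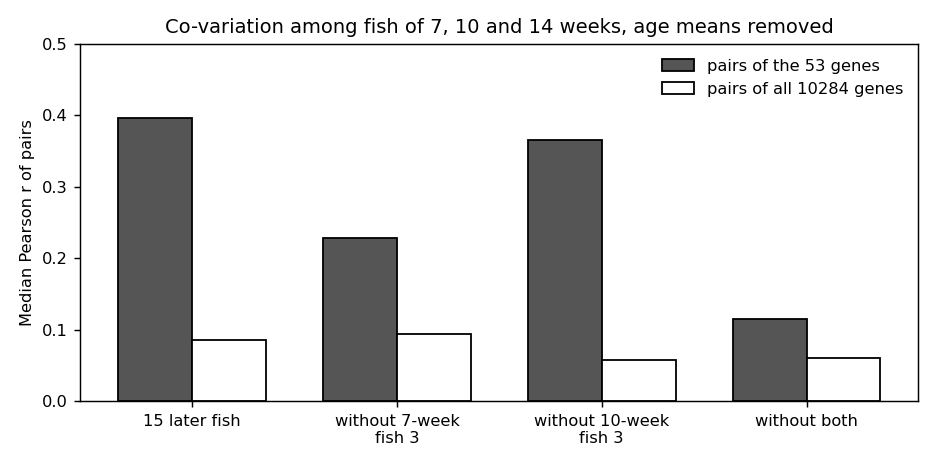
Bars give the median Pearson correlation over pairs of the 53 genes (filled) and over pairs of all 10284 genes passing the level minimum (open), with all 15 later fish or without the fish named, after age means were removed. The filled bar falls to 0.116 when 7-week fish 3 and 10-week fish 3 are both left out, against 0.396 with all fish.

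The lengths of the genes lay in the range of those of other genes, which was not tested. Gene lengths could be recovered from the deposited RPKM for 50 of the 53 genes and had a median of 3143 bp with quartiles of 1834 and 4552 bp. The median was 3075 bp, with quartiles of 1581 and 5193 bp, for the 10221 genes passing the level minimum that had a length. Per length, the rebuilt 5-week median was 2.91 RPKM for the middle gene of these 50, with quartiles of 1.84 and 6.66 RPKM, against 5.08 RPKM with quartiles of 2.48 and 12.2 RPKM for all genes.

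With the same rule turned to other ages, genes set apart at 5 weeks were about as many upward as downward and far fewer than those at 7 weeks. A 5-week median below the other 3 by the same margin was found in 56 genes. For 7 weeks the rule gave 536 genes upward and 205 downward, for 10 weeks 21 and 24, and for 14 weeks 17 and 9. These counts come from the same 20 fish and were not tested against each other.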

How the data were processed

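Liver RNA of 20 fish was sequenced from TruSeq RNA v2 libraries, per the labels; the kit does not mark strand. The submitters' processing notes name featureCounts 1.4.6-p4, STAR 2.4.1d and CASAVA 1.8.2, with no options; genome build and annotation: not given in the sources used here. Deposited were a table of counts per gene, whole numbers with a different total in each library, and a table of values the authors name RPKM, whose scaling totals it does not state. In the RPKM table the library totals run through a cycle of 25 numbers down the columns (residual SD 0.000144 on the log2 scale, against 0.222 with each library's own total), so single values depart from RPKM by up to 2.05-fold. It served for gene lengths and alternatives only.

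The genes and lists were chosen with earlier results of these data known. Lists of cell type and pathway genes could not be applied without gene names. Fish are numbered within an age in accession order and no number pairs fish. The 40 pairs of fish of 1 age differed beyond sampling noise (smallest chi-square per degree of freedom 64.8, over genes whose counts in the pair sum to 20 or more).

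Fits used R 4.3.3 and edgeR 4.0.16 (filterByExpr, TMM, 1 mean per age, all 20 libraries), and standard errors are the log2 fold change over the square root of F. DESeq2 1.42.0, limma 3.58.1 (voom, or log2 of RPKM plus 0.1 or 1 for genes with at least 1 RPKM in 5 libraries) and other settings were alternatives. Fits, rule and cycle were tested on simulated data, where DESeq2 alone made more false calls than its threshold allows. Identifiers were named by rule: among genes without overlap, up to 2 with the largest fitted fall at 7, 10 and 14 against 5 weeks, skipping those already named, and the 2 largest rises and falls at 14 against 7 weeks. Reads of overlapping, antisense or near-identical genes cannot be separated.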

Additional observations from a re-analysis of the deposited data

Results flagged for a closer look

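Dixon's gap criterion (0.71 of the group's range for 5 values) was applied to 44 groups of 5 fish. In 9 of them a fish stood apart from the rest. The criterion flags about 1 in 20 groups of unselected values. The genes here were chosen by their values in these same fish, so the 9 groups cannot be set against that rate. All 9 concerned the fish numbered 3 of an age, a number that links no fish of different ages.

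At 5 weeks the median of the 53 genes relative to their highest later median was -0.408 log2 units in fish 3, below the other fish. Nfu_g_1_008256 at 5.83 CPM and Nfu_g_1_008321 at 1.37 CPM were low in the same fish. At 7 weeks that median was 1.19 log2 units in fish 3, which had 28 raised genes, and Nfu_g_1_015861 at 47.0 CPM, Nfu_g_1_006927 at 68.8 CPM and Nfu_g_1_009387 at 4.41 CPM were high in it. At 10 weeks fish 3 had 9 raised genes, above the other 10-week fish. These items are not independent, since the genes vary together. Genes with at least 1 read were fewest at 5 weeks in fish 3 (19156) and most at 7 and 10 weeks in fish 3 (20059 and 20497). The 10-week fish 3 was also the deepest of all libraries. The part of these numbers and of depth in these results was not tested.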

How the results depend on the processing

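The membership depended on single fish, on using medians and on how libraries were scaled. With TMM-scaled CPM 50 genes met the rule, and 37 of the 53 genes were chosen again. With a pseudocount of 2 these numbers were 44 and 36. Leaving out 5-week fish 3 and 7-week fish 3 together was an alternative chosen after seeing the data. On the deposited RPKM, whose totals run through the cycle described above, the level minimum was 5 RPKM in place of 5 CPM. The rebuilt 5-week median was 2.91 RPKM for the middle gene, so level alone could keep many of the 53 genes from being chosen again there. The rule gave 169 genes with a level minimum of 1 CPM, 20 with 10 CPM, 19 with a score of at least 1.5, 120 with means in place of medians and 13 on the deposited RPKM. It gave 176 genes without 5-week fish 1 and 2, 103 without fish 1, 2 and 4, 192 without 5-week fish 3 and 7-week fish 3, and 48 to 189 when each fish was left out, with 189, 132 and 120 without 5-week fish 3, 2 and 1. Of the 53 genes, 33 were chosen again with DESeq2 size factors, 20 with 10 CPM, 19 with the higher score, 19 with means, 9 on RPKM, 25 without 5-week fish 1 and 2, 14 without fish 1, 2 and 4, and 28 to 51 when each fish was left out, with 28 and 33 without 5-week fish 4 and 1. Genes raised in every 5-week fish numbered 1 with a pseudocount of 0.1, 3 with a limit of 0.5 log2 units, 14 without 5-week fish 3 and 7-week fish 3, and 0 to 14 when each fish was left out. Genes whose 5-week fish all lay above all later fish numbered 0 on RPKM, 19 without those 2 fish, and 1 to 9 when each fish was left out, with 9, 2 and 3 without 5-week fish 3, 1 and 5.

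Genes called lower at 7, 10 and 14 against 5 weeks numbered 18, 5 and 0 with the libraries of the compared ages alone, 4, 5 and 1 on RPKM with a pseudocount of 0.1, and 6, 5 and 2 with a pseudocount of 1, where 39 of the 53 genes were tested. Calls over all tested genes were fewer too, with 5.83%, 0.576% and 0.0127% called lower in the first of these settings. On RPKM these shares were 1.6%, 0.435% and 0.142% with a pseudocount of 0.1, and 1.23%, 0.372% and 0.15% with a pseudocount of 1. Limma-voom gave 10 at 10 weeks and 5 at 14 weeks, beside 1.68% and 0.923% of all tested genes. Without 5-week fish 1 and 2, 18 were called at 10 weeks, beside 2.43%. Without 5-week fish 3 and 7-week fish 3, the alternative chosen after seeing the data, the counts at 7 and 14 weeks were 48 and 39. When each fish was left out, the count at 7 weeks was between 17 and 45, that at 10 weeks between 5 and 42, and that at 14 weeks between 3 and 37. At 10 against 7 weeks DESeq2 and the fit without 5-week fish 1 and 2 called 2 genes each, limma-voom and RPKM with either pseudocount called 0 (1 gene each at an unadjusted p under 0.05), the fit without 7-week fish 3 and 10-week fish 3 called 0 (0 at an unadjusted p), and leaving out each fish gave 0 to 2. At 14 against 10 weeks every alternative run called 0 (0 to 0 when each fish was left out). Hardly any of all tested genes were called there either, at most 0.206% higher and 0.0668% lower, with DESeq2. The fall of Nfu_g_1_006927 at 14 against 7 weeks lost its call under 18 of 28 alternatives and that of Nfu_g_1_009387 under 7 of 27. Without 7-week fish 3 the single call at 10 against 7 weeks was a rise of another gene. The cause of these shifts was not tested.

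No paired analysis was possible because the labels give no replicate numbers that link fish of different ages. The low level of most of these genes limits how well their later levels are known.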

Other observations

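A further 22 genes passed the level minimum and the score but had later medians at least 0.8 log2 units apart, and were left out by the rule. Of these, 19, 18, 8, 15 and 11 were raised in 5-week fish 1 to 5. The shares over all genes passing the level minimum were 4.53%, 2.97%, 0.72%, 1.39% and 1.22% in these fish. Of the 22 genes, 8 were raised in 7-week fish 3, beside 2.11% of all genes. The other 7-week fish had 0 to 3, beside 0.117% to 0.515%. The 5-week fish 3 had the fewest raised genes of the 5-week fish, over all genes as well. Among the 22 genes, 7-week fish 3 had the most raised genes of the later fish. Over all genes 14-week fish 5 had more, with 2.75%. These genes passed the same score in the same fish, so the counts are a description and no separate support.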
